A study of Mus musculus with 4 samples.

Results

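The genes of mouse chromosome 14 that start more than 10 and up to 40 Mb beyond the start of Ndrg2, in the direction of rising coordinates, were examined in cortical RNA of samples labelled Ndrg2 knockout and wild type. The interval was chosen with earlier results of these data known, and its members by position and signal, apart from Lgi3, which was left out by name. A gene entered if the transcript accession of a probe placed it in this interval and at least 1 channel showed a probe of it well above background on each of the 4 arrays. Of 170 interval genes with a probe, 128 passed, out of 15759 genes tested in all. They comprised 121 protein-coding genes, 5 genes of long noncoding RNAs and 2 transcribed pseudogenes.

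Genes on one chromosome are inherited together, and recombination separates them more often the farther apart they lie. The interval distal to Ndrg2 carries no single pathway. It holds neuronal genes such as the neurofilament genes Nefl and Nefm and the serotonin receptor gene Htr2a, general genes such as the tumour suppressor gene Rb1, and clusters of genes used mainly outside the brain, such as those of beta-defensins.

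The study measured RNA of the cerebral cortex from adult males, 3 months old, of genotype Ndrg2-/- (a knockout of the N-myc downstream regulated gene 2, which brain tissue expresses mostly in astrocytes) or wild type, both on a C57BL/6N background. Each of 4 dual-colour Agilent arrays carried 1 sample labelled knockout in Cy5 and 1 sample labelled wild type in Cy3. How the allele was made and how often it was backcrossed is not given in the sources used here. No dye swap was made, so genotype and dye cannot be told apart, and the labels do not say whether the samples came from separate animals, so p-values measure only the spread between these samples. Ratios are log2 of the samples labelled knockout over wild type, given with the SD over 4 arrays (n = 4), and calls were made in limma at an adjusted p under 0.05.

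Across the series, the median spot signal was 283 to 336 in the knockout-labelled channel and 94 to 122 in the wild-type channel, over local backgrounds of 87 to 96 and 22 to 26. The number of arrays limits the precision. The 4 markers of cortical excitatory neurons were well above background in both channels. Ndrg2 itself was called higher in the samples labelled knockout, at 0.11, 0.37, 0.40 and 0.38 on arrays 1 to 4 (mean 0.32 ± 0.14, adjusted p 0.0173). This goes against the labels. Which stretch of the gene is missing is not given in the sources used here, and whether the probe lies in it was not tested. Every direction below rests on the labels. All 7 markers of the meninges, the connective tissue over the cortex, passed the test as higher. Their median log2 ratio was 0.50, with array medians of 0.61, 0.43, 0.25 and 0.67, and their summed intensity was 11250 to 15800 in the samples labelled knockout against 7964 to 13000 in wild type. None of these markers was near background, and their part in the results below was not tested. In bulk RNA, fewer cells of a type and less RNA per cell cannot be told apart.

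The interval held more called genes than the array as a whole, in equal numbers up and down. Of the 128 members, 38 were called (29.7%), 19 of them as higher in samples labelled knockout and 19 as lower, while 15.0% of all genes tested were called, 9.12% as higher and 5.84% as lower. The higher members had a median log2 ratio of 0.27 and the lower ones of -0.29. The median over all 128 members was -0.01, against 0.01 over all genes, and the median size of a ratio was 0.07, against 0.08. The order of the 2 median sizes depended on the setting. The members' was the larger one with the processed signals (0.12, against 0.10 over all genes) and, by less, without replicate 1, 3 or 4 in turn, and the smaller one without replicate 2. On the single arrays it was also larger, from 0.10 to 0.13 against 0.09 to 0.12. The 90th percentile of size was 0.33 for the members and 0.22 for all genes. A ratio over 0.3 in size was found in 16 members (12.5%), against 4.05% of all genes. No test of the member share was made, since the interval was chosen with results of these data known.

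These counts fell whichever array was left out, and so did the share of all genes called. Each such fit rested on fewer arrays. With replicate 1 left out 19 members were called, with replicate 2 left out 18, with replicate 3 left out 20 and with replicate 4 left out 32. The share over all genes was then 4.10%, 2.87%, 5.10% and 9.80%, so the members' share of 14.8%, 14.1%, 15.6% and 25% stayed above it each time. With the scanner software's processed signals 27 members passed (21.1%, against 8.43% of all genes), and all 27 were among the 38. Median centring without loess moved the median of all genes to 0.28 and called 75 members higher and 24 lower. Of the 19 members given here as lower, 13 then lay above 0, 11 of these below that shifted median.

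**Figure D1:**
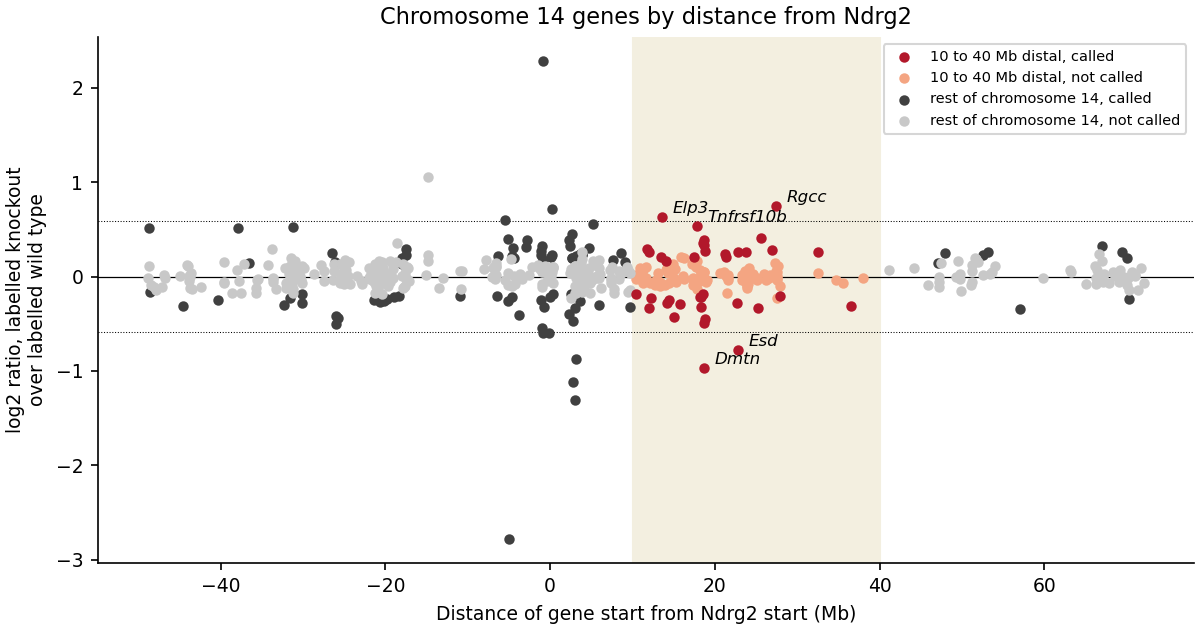
The log2 ratio of each tested chromosome 14 gene (mean of 4 arrays) is plotted against the distance of its start from that of Ndrg2 in Mb, with the interval shaded, called members in red, other called genes in black and the 1.5-fold lines dotted. Members are called on both sides of 0, Dmtn and Esd lie below the lower line, and Rgcc and Elp3 lie above the upper line. Ndrg2 and Lgi3 are not drawn.

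Only a few members changed by much. The series' design text uses a change of more than 1.5 fold, a log2 ratio of 0.585. On all 4 arrays it was met by 3 members, Dmtn, Esd and Rgcc, against 0.0952% of all genes. By the mean over arrays Elp3 was added, which makes 4 members, against 0.273% of all genes. Ranked by size among all 15759 genes, Dmtn stood at 6, Esd at 10, Rgcc at 14 and Elp3 at 30.

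Dmtn encodes dematin, which bundles actin filaments and links them to the membrane skeleton. Its normalized intensity was 5317, 5503, 4411 and 3863 in the samples labelled knockout, against 10350, 10670, 8774 and 7583 in wild type, on arrays 1 to 4. The wild-type value was the higher one on each array, and the groups did not overlap. The log2 ratio was -0.97 ± 0.02 (limma, adjusted p 7.4e-05), with single values of -0.96, -0.96, -0.99 and -0.97.

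Esd encodes esterase D, the S-formylglutathione hydrolase of formaldehyde detoxification. Its intensity was 5269, 5445, 4079 and 3298 in the samples labelled knockout, against 8751, 9103, 6948 and 5966 in wild type. Here too all knockout-labelled values lay below all wild-type values. The log2 ratio was -0.77 ± 0.06 (adjusted p 0.000295). A second, dimmer Esd probe was lower as well, at -0.32 ± 0.04 (adjusted p 0.00451), so the direction was shared by both probes and the size was not.

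Rgcc, the regulator of cell cycle gene first described as a response gene to complement, changed the other way. Its intensity was 13530, 13350, 11540 and 9183 in the samples labelled knockout, against 7577, 8413, 7270 and 5204 in wild type. The lowest knockout-labelled value was above the highest wild-type value. The log2 ratio was 0.75 ± 0.09 (adjusted p 0.000709).

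Elp3 encodes the catalytic subunit of the Elongator complex, which modifies wobble uridines of transfer RNAs. Its intensity was 3158, 3405, 2829 and 2509 in the samples labelled knockout, against 2133, 2204, 1727 and 1644 in wild type, again without overlap. The log2 ratio was 0.63 ± 0.06 (adjusted p 0.000753), and array 1, at 0.57, was the one below the 1.5-fold line. Dmtn, Rgcc and Elp3 had 1 kept probe each, so no other probe could check them.

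**Figure D2:**
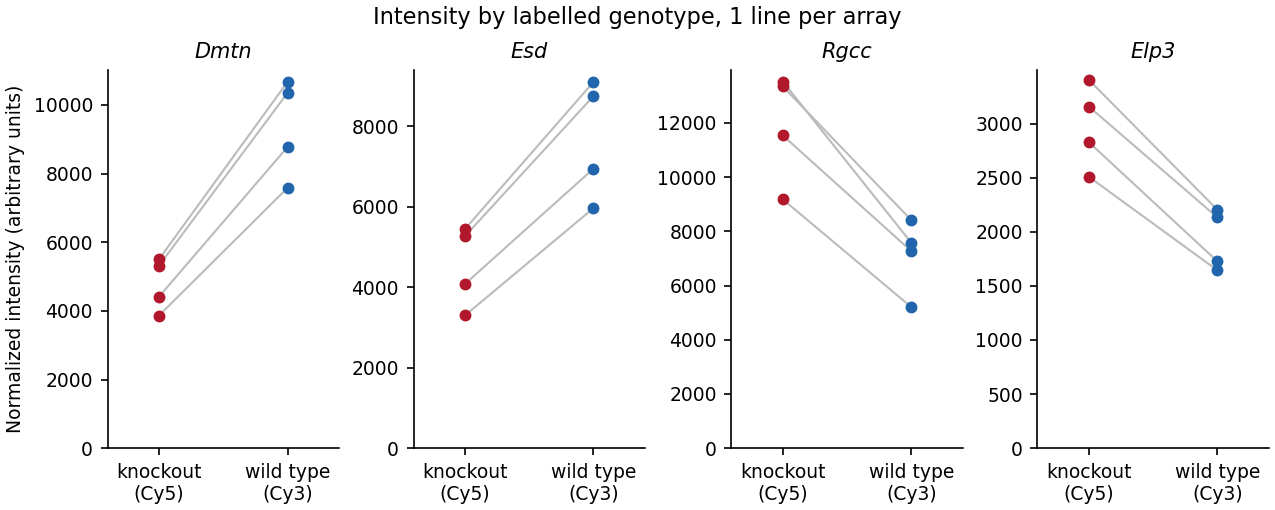
Normalized intensity (arbitrary units, linear axis from 0) of the 4 members past 1.5 fold by the mean is shown for the samples labelled knockout (left, red) and wild type (right, blue), with 1 line per array. All 4 lines run the same way in each panel, upward towards wild type for Dmtn and Esd and downward for Rgcc and Elp3.

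The promoters of the members past 1.5 fold on all 4 arrays are shown where the RefSeq promoter table (GRCm38.p6) has an entry, from 250 bases before to 50 bases after the gene start, 5′ to 3′ on the gene's strand. The capitals mark CG dinucleotides. The table matched 49 of the 128 members, too few for a check over the members. It holds Esd (chr14:74732047-74732346, plus strand) and Rgcc (chr14:79301586-79301885, minus strand), and Dmtn and Elp3 were not shown.
Esd: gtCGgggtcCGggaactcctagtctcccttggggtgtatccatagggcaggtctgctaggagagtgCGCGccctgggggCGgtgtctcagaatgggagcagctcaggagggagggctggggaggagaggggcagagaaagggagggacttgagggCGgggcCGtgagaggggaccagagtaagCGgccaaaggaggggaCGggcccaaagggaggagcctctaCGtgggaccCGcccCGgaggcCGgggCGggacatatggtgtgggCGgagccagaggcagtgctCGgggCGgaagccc
Rgcc: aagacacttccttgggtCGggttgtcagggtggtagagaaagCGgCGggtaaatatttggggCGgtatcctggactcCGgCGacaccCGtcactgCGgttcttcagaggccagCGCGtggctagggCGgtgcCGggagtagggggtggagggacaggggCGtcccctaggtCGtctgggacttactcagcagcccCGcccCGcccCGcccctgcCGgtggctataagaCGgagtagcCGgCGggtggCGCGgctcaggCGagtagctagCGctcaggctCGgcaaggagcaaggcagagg
The Esd window held 17 CG dinucleotides, more than 68.1% of the 27025 genes' first windows in the table, and the Rgcc window held 26, more than 83.2%. The letters TATAAA were in neither window on either strand, and 14.2% of all windows hold them. This is a description of the letters and says nothing about the factors that bind there.

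A further 12 members had a ratio over 0.3 in size and passed the test. The highest was Tnfrsf10b, the receptor of the death ligand TRAIL, with intensities of 273.9, 282.2, 268.1 and 241.9 in the samples labelled knockout, against 177.9, 196.0, 185.4 and 177.8 in wild type. The groups did not overlap, and the log2 ratio was 0.53 ± 0.07 (adjusted p 0.000879). The Tnfrsf10b signal was dim, at a mean log2 intensity of 7.79. The lowest was Sftpc, the lung surfactant protein C gene, whose signal was dim, at 191.8, 201.3, 139.5 and 143.7 in the samples labelled knockout, against 288.8, 248.4, 207.3 and 206.3 in wild type. The highest knockout-labelled value was just below the lowest wild-type value, and the log2 ratio was -0.50 ± 0.13 (adjusted p 0.00355). For both genes the ratio was larger with the processed signals, 0.74 for Tnfrsf10b and -0.84 for Sftpc, which put both past 1.5 fold on all 4 arrays.

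Of the 38 called members, 14 were called with each replicate left out in turn. By their brightest probes they were Dmtn, Esd, Sftpc, Xpo7, Pnma2, Pinx1 and Kctd9 among the lower genes, where another Xpo7 probe went the opposite way, and Rgcc, Elp3, Tnfrsf10b, Gm6994, Hr, Polr3d and Fam160b2 among the higher ones. Of the other called members, 2 kept the call in 3 of the 4 cases, 5 in 2 cases and 14 in 1 case only. The 14 were Ccar2, Clu, Cog3, Enox1, Gm10845, Msra, Pcdh17, Pdlim2, Pnoc, Ppp3cc, Rcbtb2, Rnaseh2b, Sox7 and Xkr6. The remaining 3, Bmp1, Rb1 and Stmn4, lost it in all cases. Their ratios then ran from -0.20 to -0.17, from 0.18 to 0.24 and from -0.28 to -0.21. All 38 had 1 sign on all 4 arrays, as did 2315 of the 2319 other called genes. The test itself favours such agreement. Of all 128 members 57 had 1 sign (44.5%), close to the 42.7% of all genes. The array SD of the called members had a median of 0.08, as in the other called genes, while their ratios were larger, with a median size of 0.28 against 0.23. The 90 members that were not called lay between -0.23 and 0.21, and 79 of them were under 0.1 in size.

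**Figure D3:**
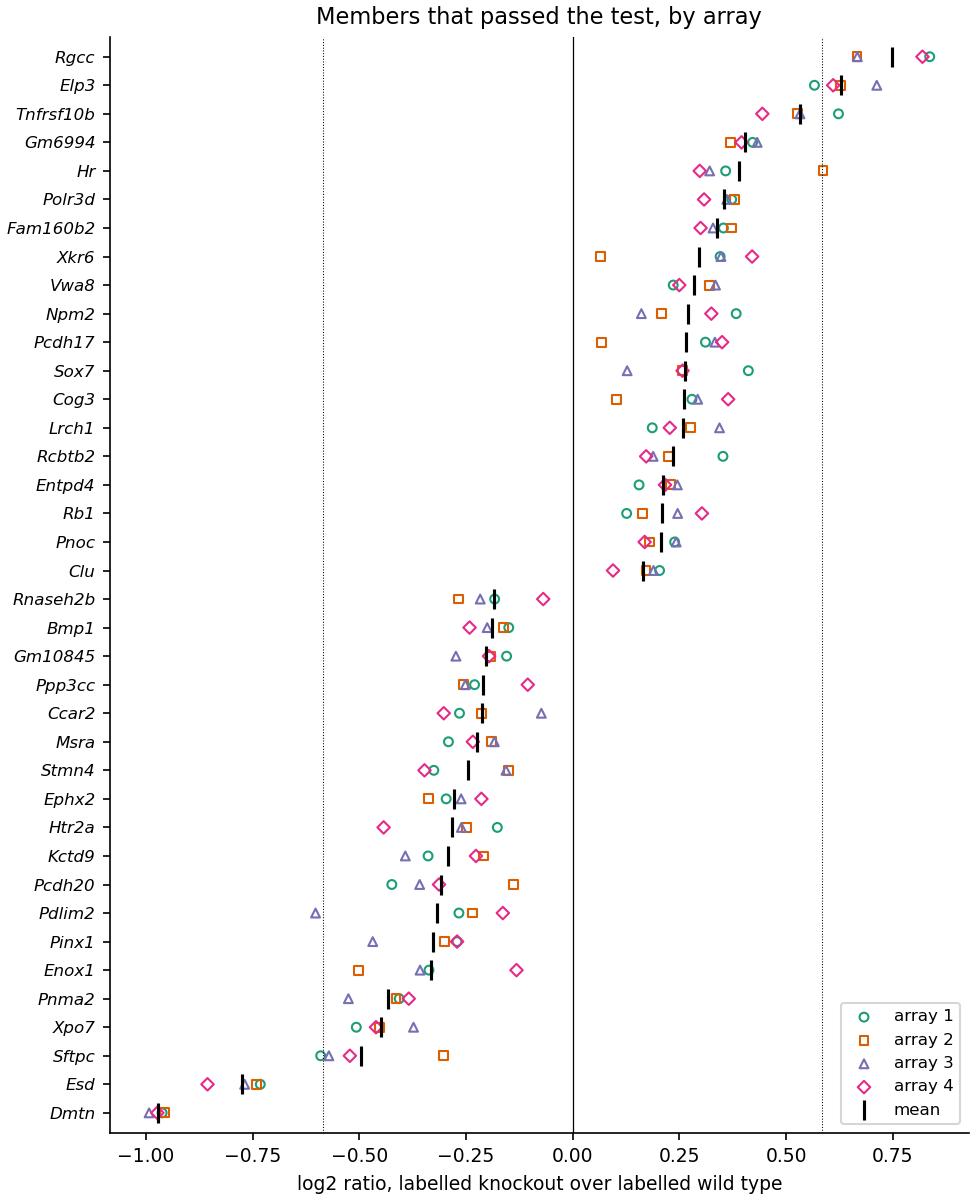
The log2 ratio of the 38 called members is shown per array (symbols) with the mean over arrays (bar), sorted by mean, with 0 as a solid line and 1.5 fold dotted. No called member crosses 0 on any array, and the spread is widest for members such as Pdlim2, where array 3 lies apart at -0.60.

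The role lists below are described by their counts, beside the 9.12% of all genes called higher and the 5.84% called lower. Genes of transcription, chromatin and RNA counted 22 members, of which 6 rose, 1 fell and 15 did not pass. Their median log2 ratio was 0.00. Elp3 was the highest. Hr, a corepressor with histone demethylase activity, was at 0.36, 0.59, 0.32 and 0.30 on the arrays, with array 2 highest and a mean of 0.39 ± 0.13 (adjusted p 0.00868). Polr3d, a subunit of RNA polymerase III, was at 0.37, 0.38, 0.36 and 0.31, nearly the same on each array, with a mean of 0.35 ± 0.03 (adjusted p 0.00292). Npm2, an oocyte histone chaperone, was at 0.27 ± 0.10, the transcription factor gene Sox7 at 0.26 ± 0.12 and Rb1 at 0.21 ± 0.08. The signals of Npm2 and Sox7 were dim, at mean log2 intensities of 7.49 and 7.40. Rnaseh2b, which encodes a subunit of the ribonuclease that removes ribonucleotides from DNA, was the one that fell, to -0.18 ± 0.08. The calls of Npm2, Sox7, Rb1 and Rnaseh2b each ended when some replicates were left out. Members that did not pass included the general factor gene Gtf2f2 at 0.00 ± 0.08 and the Mediator gene Med4 at -0.01 ± 0.07.

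Genes of mitochondria, redox reactions and metabolism counted 19 members, of which 2 rose, 5 fell and 12 did not pass, with a median of -0.04. Esd had the largest ratio. Enox1, a cell surface NADH oxidase gene, was at -0.34, -0.50, -0.36 and -0.13, a mean of -0.33 ± 0.15 (adjusted p 0.0179), with array 4 closest to 0. Its signal was dim, at a mean log2 intensity of 7.54. Pinx1, better known as an inhibitor of telomerase, was at -0.27, -0.30, -0.47 and -0.27, a mean of -0.33 ± 0.09 (adjusted p 0.00894). It is counted among the 5 that fell, though that role lies outside the list's theme. Ephx2, the soluble epoxide hydrolase of lipid signalling, was at -0.28 ± 0.05, and Msra, a methionine sulfoxide reductase that repairs oxidized proteins, at -0.23 ± 0.05. Entpd4, a nucleotide-hydrolysing enzyme of the secretory pathway, rose to 0.21 ± 0.04, and Vwa8, a mitochondrial ATPase, rose by its brightest probe alone, as given below. The mitophagy gene Bnip3l, by its brightest probe (-0.02 ± 0.04), and the succinyl-CoA ligase gene Sucla2 (-0.04 ± 0.09) did not pass. Other Bnip3l probes, at -0.31 and -0.18, were called, as given below.

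Neuronal genes counted 19 members, of which 2 rose, 4 fell and 13 did not pass, with a median of -0.01. Pcdh20 and Pcdh17, adhesion molecules of the protocadherin family, went opposite ways. Pcdh20 was at -0.42, -0.14, -0.36 and -0.31, a mean of -0.31 ± 0.12 (adjusted p 0.0154), and Pcdh17 at 0.31, 0.07, 0.33 and 0.35, a mean of 0.27 ± 0.13 (adjusted p 0.0251). In both genes array 2 was the one nearest 0. Htr2a, the serotonin 2A receptor gene of cortical neurons, fell to -0.28 ± 0.11, with array 4 lowest at -0.44. Stmn4, a microtubule regulator, fell to -0.24 ± 0.11, and Ppp3cc, a catalytic subunit of calcineurin, to -0.21 ± 0.07. Pnoc, the precursor of the neuropeptide nociceptin, rose to 0.21 ± 0.04, with all arrays between 0.17 and 0.24. None of the called neuronal genes kept its call with each replicate left out in turn, and Stmn4 lost it every time. The neurofilament genes did not pass, with Nefl at 0.01 ± 0.11 and Nefm at -0.02 ± 0.21. Among the markers of other cells and regions, the 3 hippocampal genes had a median of -0.27 with 1 called lower. Only 2 of the 3 were well above background in both channels, and their array medians ran from -0.32 to 0.02. Of 4 oligodendrocyte markers 1 was called higher (median -0.02), and of 3 endothelial markers 1 was called higher (median -0.08). Neither of 2 blood markers was called, with array medians from -0.53 to 0.35. Of 4 cortical excitatory neuron markers 1 was called higher (median 0.17), and of 4 microglial markers 2 were called higher (median 0.15). None of the inhibitory neuron or striatal markers was called; their part in these values was not tested.

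Genes of the cytoskeleton, adhesion and intracellular signalling counted 15 members, of which 3 rose, 2 fell and 10 did not pass, with a median of 0.05. Dmtn and Rgcc had the largest ratios. Pdlim2, whose protein binds actin and marks the NF-kB subunit p65 for degradation, was at -0.27, -0.24, -0.60 and -0.16, a mean of -0.32 ± 0.20 (adjusted p 0.0315), with array 3 farthest from 0. Xkr6, of the XK family of membrane proteins, was at 0.35, 0.07, 0.35 and 0.42, a mean of 0.29 ± 0.16 (adjusted p 0.0249), with array 2 nearest 0. Lrch1 was at 0.26 ± 0.07. Diaph3, an actin nucleator, was at -0.03 ± 0.09 and did not pass, and neither did Lcp1, a plastin, at -0.03 ± 0.13.

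Genes of protein turnover, import and trafficking counted 16 members, of which 2 rose, 2 fell and 12 did not pass by their brightest probes, with a median of 0.01. Xpo7, a nuclear export receptor, had the lowest ratio by its brightest probe (-0.45 ± 0.06, adjusted p 0.00133), and another probe went the opposite way. Kctd9, an adaptor of cullin-3 ubiquitin ligases, was at -0.34, -0.21, -0.39 and -0.23, a mean of -0.29 ± 0.09 (adjusted p 0.0117). Cog3, a tether of Golgi vesicles, rose to 0.26 ± 0.11. Rcbtb2 was at 0.23 ± 0.08 by its brightest probe, and its other probe, at 0.02, did not pass. Ctsb, the lysosomal protease cathepsin B, was at 0.07 ± 0.03 and did not pass.

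Genes of secreted, matrix and membrane-shed proteins counted 9 members, of which 2 rose, 2 fell and 5 did not pass by their brightest probes, with a median of 0.02. Besides Tnfrsf10b and Sftpc, clusterin (Clu), an extracellular chaperone abundant in astrocytes, rose to 0.16 ± 0.05 (adjusted p 0.0366), with array 4 lowest at 0.09. Bmp1, the procollagen C-proteinase, was at -0.19 ± 0.04 by its brightest probe (adjusted p 0.0238), a call lost with any replicate left out. Its other probes were above 0, at 0.15 and 0.06, and did not pass. The lysyl oxidase gene Loxl2 was at 0.10 ± 0.06 and did not pass. The astrocyte markers beside Clu had a median of 0.21 with none of 4 called, and their summed intensity was 19400 to 25320 in the samples labelled knockout against 17040 to 24130 in wild type; their part in the Clu value was not tested.

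The 6 role lists were drawn up with earlier results known and took in 100 of the 128 members. Of these 100, 33 were called (33%), against 5 of the 28 members in no list (17.9%) and 15.0% of all genes tested. These shares were not matched for brightness, and the median log2 intensity was 9.78 for listed members and 7.48 for those in no list. In that remainder, Pnma2, a gene of the paraneoplastic Ma antigen family, was at -0.41, -0.41, -0.53 and -0.38, a mean of -0.43 ± 0.06 (adjusted p 0.00173). The noncoding RNA gene Gm6994 was at 0.42, 0.37, 0.43 and 0.40, a mean of 0.40 ± 0.03 (adjusted p 0.00147). Both kept their direction on every array, as did all 38 called members. The Pnma2 value is that of its brightest probe, and its other probe, at -0.11 ± 0.05, did not pass. Fam160b2 was at 0.34 ± 0.03, Ccar2, an inhibitor of the deacetylase SIRT1, at -0.21 ± 0.10, and the noncoding RNA gene Gm10845 at -0.20 ± 0.05 by its brightest probe, with its other probes at -0.12 and 0.02, neither of which passed.

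Brightness was compared next, since brighter genes were called more often throughout the array. All genes tested were split into 5 equal groups by mean intensity. From the dimmest to the brightest group, 1 of 27, 4 of 25, 14 of 27, 6 of 15 and 13 of 34 members were called. These shares were 3.70%, 16%, 51.9%, 40% and 38.2%, against 7.04%, 12.0%, 15.5%, 18.8% and 20.9% of all other genes in the same groups. The members' share was thus lower in the dimmest group and higher in the other 4. Weighted to the members' brightness, 14.8% of other genes were called and 3.97% had a ratio over 0.3 in size, against 29.7% and 12.5% of the members.

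**Figure D4:**
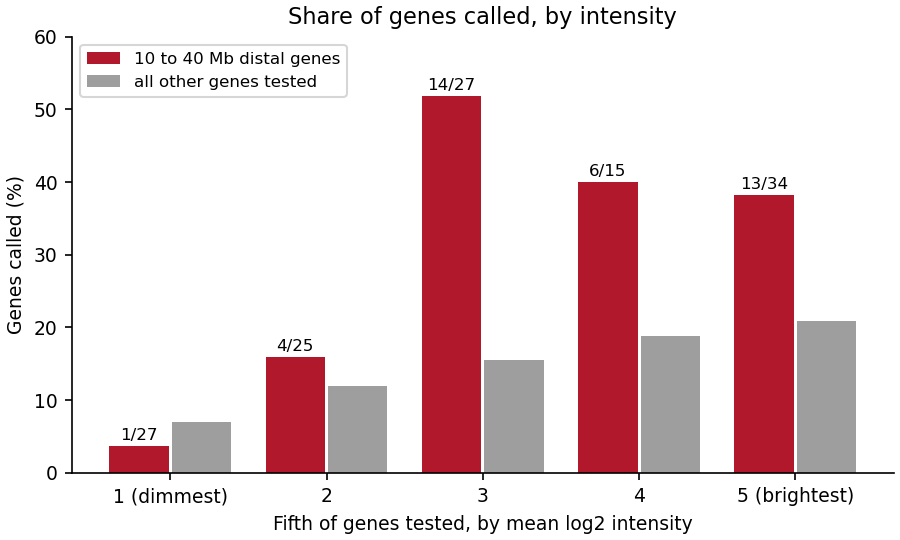
The percentage of genes called is shown for 5 equal groups of genes by mean log2 intensity, for the 128 members (left bars, red, with called over tested above each bar) and all other genes tested (right bars, grey). The members' bar is the lower one in the dimmest group, at 3.70%, and the higher one in the others, reaching 51.9% in the middle group.

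Within the interval the share called did not fall steadily with distance. It was 11 of 36 genes at 10 to 15 Mb, 14 of 39 at 15 to 20 Mb, 6 of 27 at 20 to 25 Mb, 5 of 20 at 25 to 30 Mb and 2 of 6 at 30 to 40 Mb. Genes over 0.3 in size were most frequent at 15 to 20 Mb, with 8 of 39. Nearer to Ndrg2, within 10 Mb on either side, 56 of 172 genes were called (32.6%), and beyond 40 Mb in the same direction 9 of 61 (14.8%, against 15.0% over all genes), none of them past 1.5 fold by the mean. At the lower bound, Dleu7 just inside was at 0.02 and Kcnrg just outside at 0.03. At the upper bound, the transcribed pseudogene Gm5088 inside was at -0.01 and Pcdh9 outside at 0.07, and none of these 4 genes was called.

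The ratios of the arrays were correlated over the members as a whole, but little over the members not called. Over the 128 members, Pearson's r between arrays ran from 0.74 to 0.86, and over all genes from 0.41 to 0.71. Over the 90 members that were not called it was 0.57 for arrays 1 and 2 and between -0.03 and 0.19 for the other pairs. These values are across genes, which are not independent replicates, and all arrays shared 1 slide and 1 dye orientation. The called members were themselves picked for agreement between arrays.

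Where a gene had several probes, those of the interval disagreed more than those elsewhere. Among the 27 members with several kept probes, the median range between the probes of a gene was 0.19, against 0.10 in 4120 other genes. The sets were not matched for the number of probes per gene. The range of Zfp395 rests on a dim probe kept through the knockout-labelled channel alone, at 0.28 ± 0.13. In 2 of the 27 (7.41%) the range was over 0.5, against 1.12% of other genes, and in 2 of the 27 (7.41%) probes were called in both directions, against 0.243%. These 2 were Xpo7 and Vwa8. For Xpo7 the brightest probe was at -0.51, -0.45, -0.37 and -0.46, and the other probe of the same transcript at 0.91, 0.66, 0.56 and 0.71 (mean 0.71 ± 0.15, adjusted p 0.000962). For Vwa8 the brightest probe, on the transcript NM_027906, was at 0.29 ± 0.05 (adjusted p 0.00793), while the probes on NM_173758 were at -0.24 ± 0.08 (adjusted p 0.0187) and 0.02 ± 0.08. No direction can be given for either gene as a whole. Averaged over its probes, Xpo7 stood at 0.13 and Bmp1 at 0.01, each with the sign opposite to its brightest probe.

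Other genes had probes that differed in size. Pnma2 was at -0.43 by its brightest probe and at -0.11 by the other, which did not pass. All 3 probes of Fam160b2 were above 0, at 0.34, 0.45 and 0.22, the last of which did not pass, and the 2 probes of Stmn4 were alike, at -0.24 each. Some genes were not called by the brightest probe but were by another, as chosen here after their values were seen. Bin3, an adaptor that shapes membranes, was at 0.07 by its brightest probe and at 0.45 ± 0.06 by the other (adjusted p 0.00138). Bnip3l was at -0.02, -0.31, -0.01 and -0.18 by its 4 probes, of which those at -0.31 and -0.18 were called.

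**Figure D5:**
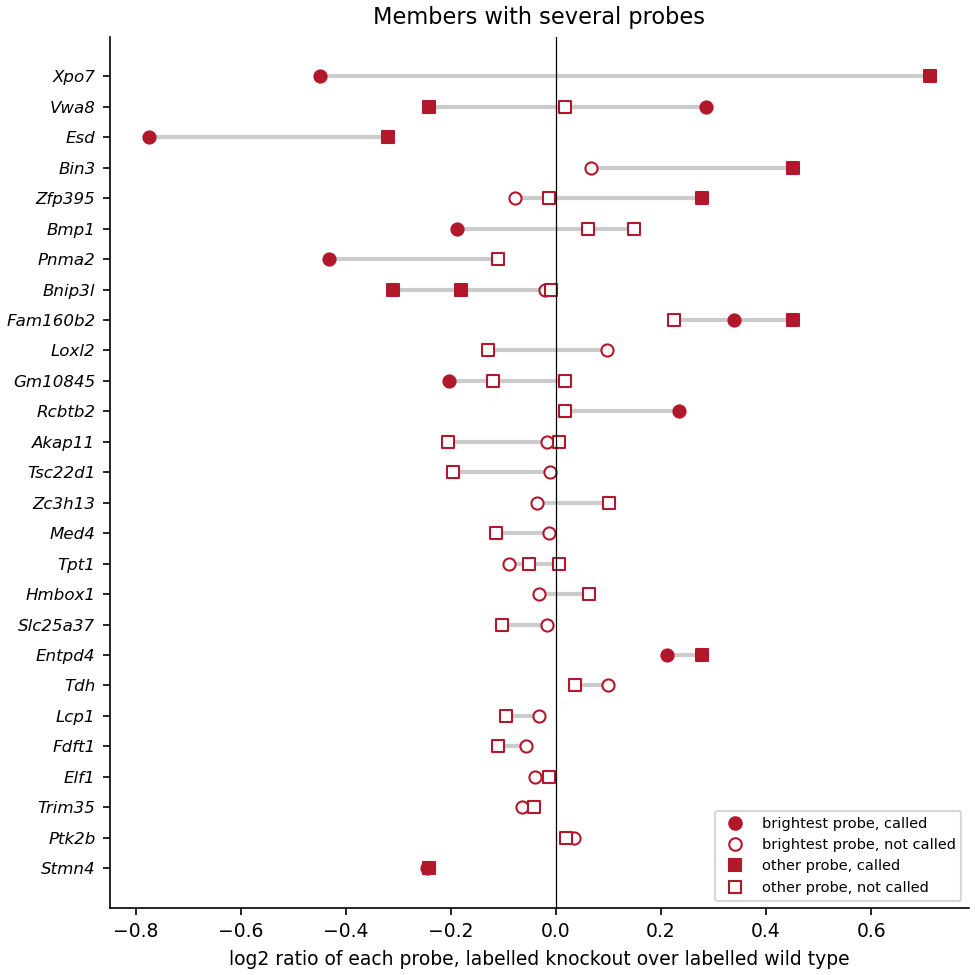
Each line is 1 of the 27 members with several kept probes, and each point is the mean log2 ratio of 1 probe over 4 arrays, round for the brightest probe, square for the others and filled where called, sorted by range. Xpo7 has the widest range, from -0.45 to 0.71, and Xpo7 and Vwa8 have filled points on both sides of 0.

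The 42 interval genes that did not pass the signal filter were not tested. For 34 of them no probe was well above background on any array in either channel. The 42 genes included 4 beta-defensin genes, 4 genes of the Adam protease family (Adam2, Adam7, Adam28 and Adamdec1), the hormone gene Gnrh1 and the cardiac transcription factor gene Gata4. All 128 members were well above background by their brightest probes, in both channels on all 4 arrays. None had thus entered through 1 genotype alone, though a dimmer Zfp395 probe was kept through the knockout-labelled channel alone.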

How the data were processed

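The members and lists were chosen with earlier results of these data known. The authors extracted 4 dual-colour Agilent arrays with Feature Extraction. Its version is 10.7.3.1 in the submitters' processing notes, while the headers name 11.0.1.1. The deposited intensity is a median over a spot's pixels in each channel, with local background given apart, per the file headers; the planned mean pixel signal was not used here. The deposited log10 ratio is that of red over green processed signal, per the file headers. The authors' deposited log2 values equal the same ratio of processed signals on the log2 scale, with no further centring.

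Intensity was background-corrected with limma's normexp (offset 50) and normalized by loess, with 1377 control spots at weight 0 (R 4.3.3, limma 3.58.1). Of 39429 probes, 27664 were kept because 1 or both channels were well above background on each array (in at least 0.5 of a probe's spots). Accessions were matched to a RefSeq gene table (GRCm38.p6), which gave names, order and distance bins; the array's own annotation is of mm9, so no gene coordinates are printed. A gene was represented by its brightest kept probe, and 15759 genes were tested. The ratio was tested with limma's lmFit and eBayes, with Benjamini-Hochberg adjustment over all kept probes. The pipeline was tested on simulated arrays.

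Named genes are the members past 1.5 fold by the mean, the 20 called members with the largest ratio in each direction, up to 5 called members of each role list, members at the bounds and members whose probes differ in sign. Some members that did not pass are named as examples. Alternatives were processed signals, the authors' values, no background subtraction, median centring, other probe filters, the mean over probes, each replicate left out and no replicate block. Replicate numbers pair samples because both were hybridised to 1 array. All arrays were on 1 slide in 1 scan, so the planned slide block could not be run. Plots were drawn with Python 3.11.15, pandas 2.3.3 and matplotlib 3.10.9.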

Additional observations from a re-analysis of the deposited data

Results flagged for a closer look

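Among 46 named members, 2 had 1 array far from the others of the gene, by a cutoff that unselected values pass 1 time in 20. Most of these members were called, and so were picked for agreement between arrays. The count therefore cannot be compared with that rate. Pcdh17 was at 0.0677 on array 2, against 0.31, 0.33 and 0.35 on the other arrays. Pinx1 was at -0.4684 on array 3, against -0.27, -0.30 and -0.27 on the others. Both genes had the same sign on all 4 arrays, and Pinx1 was called with each replicate left out in turn.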

How the results depend on the processing

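With 1 replicate left out, the members called higher numbered 10 to 15 and those called lower 8 to 17, the share called was 14.1% to 25%, the median size 0.0757 to 0.0955 and the members past 1.5 fold on all arrays 3 to 4. With no replicate block, which treats the channels of an array as unpaired, 11 members were called higher and 7 lower (14.1%, against 4.29% of all genes), and Pnma2, Pinx1 and Fam160b2 were among those no longer past the threshold. The processed signals and the authors' deposited log2 values each gave 6 members past 1.5 fold on all arrays, with a median size of 0.1165 (0.1022 over all genes), and lost 11 of the 38 calls. Median centring without loess moved the overall median ratio to 0.28 and called 82.3% of them. It called 75 members higher and 24 lower (77.3%), with 7 past 1.5 fold and a median size of 0.3145. Under it, 13 of the 19 lower members took the opposite sign, 11 of these still below the shifted median of all genes. The values were 0.23 for Bmp1, 0.11 for Ccar2, 0.0293 for Ephx2, 0.29 for Gm10845, 0.0811 for Kctd9, 0.16 for Msra, 0.0201 for Pcdh20, 0.0312 for Pdlim2, 0.14 for Pinx1, 0.0443 for Pnma2, 0.13 for Ppp3cc, 0.12 for Rnaseh2b and 0.32 for Stmn4. Of members that were not called, Akap11 (0.40), Tpt1 (0.51) and Zc3h13 (0.36) also turned sign. The mean over all probes of a gene turned Bmp1 to 0.0072 and Xpo7 to 0.1316, which reflects their other probes. The remaining causes were not tested. Dmtn, Esd, Rgcc, Elp3, Tnfrsf10b and Sftpc kept direction and call under all 12 alternatives, Dmtn between -1.0 and -0.56 and Rgcc between 0.72 and 1.18. The 12 were not separate checks. The authors' values equal the ratios of the processed signals, and the other probe filters gave the same result for all 49 named genes. In the dimmest group 1 of 27 members was called (3.70%), against 7.04% of other genes.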

Other observations

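Neighbouring called genes went both ways. Each member was paired with the next one in order, whatever the distance and without Lgi3, which lies between Sftpc and Reep4. Of these 127 pairs, 13 had both genes called, 4 in the same direction and 9 in opposite directions by their brightest probes. The same count over the rest of the array was not made, and pairs with Xpo7 or Bmp1 rest on a probe that others of the gene contradict. Pairs in the same direction were Pnoc and Elp3, Bmp1 and Sftpc, Rcbtb2 and Rb1, and Htr2a and Esd. Among the opposite pairs were Clu and Ephx2, Fam160b2 and Dmtn, Dmtn and Npm2, and Esd and Lrch1. Probes of overlapping or adjacent genes were not checked for shared sequence.

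The densest stretch, chosen after the values were seen, ran from Polr3d to Xpo7, where 8 of 11 members were called, 4 higher and 4 lower by their brightest probes; for Xpo7 and Bmp1, counted as lower, the mean over probes was above 0. In order these were Polr3d, Bmp1, Sftpc, Hr, Fam160b2, Dmtn, Npm2 and Xpo7, with Phyhip, Reep4 and Nudt18 not called. The longest stretches without a call, also found after the fact, ran from Slc25a30 to Ccdc122 with 11 members, whose median size was 0.04, and from Gucy1b2 to Mtmr9 with 9 members, whose median size was 0.06.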
